A study of Mus musculus with 6 samples.

Results

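Cytosolic ribosomal protein genes encode the proteins of the ribosome that translates nuclear-encoded mRNA. Members were every probe of a one-colour mouse array whose gene symbol was Rpl or Rps followed by a number, with an optional letter or l suffix, together with Rplp0, Rplp1, Rplp2 and Rpsa. Rps6k kinases and pseudogene symbols were left out, and Rps3a1 was included because the gene table lists it under the older symbol Rps3a. The scanner files name probes by accession, so symbols came from a RefSeq table of assembly GRCm38.p6. This gave 171 of 55681 probes and 84 of 19897 named genes, with 110 probes for 52 large subunit genes and 61 probes for 32 small subunit genes. Of these genes, 52 had 2 or more probes and 32 had a single probe.

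The series compared cells sorted by flow cytometry from the spinal cord of mouse embryos at E12.5. All embryos carried the Hb9::GFP reporter, in which the promoter of Hb9 (Mnx1), a motor neuron gene, drives GFP, so that GFP-on cells were collected as motor neurons and GFP-off cells as all remaining spinal cells. The embryos were labelled either wild type or mir-17~92 -/-, a homozygous loss of a microRNA cluster. There were 2 GFP-on arrays and 1 GFP-off array for each genotype label, 6 arrays in all. The labels do not say how many embryos went into an array or whether replicates came from separate embryos, so the spread between them may be technical.

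A ribosome contains 1 copy of nearly every ribosomal protein, and cells therefore make these proteins in matched amounts. Their mRNAs are among the most abundant in growing cells. Most begin with a terminal oligopyrimidine tract, a C at the first base followed by a run of C and T, through which the mTOR pathway controls their translation. In developing neurons, ribosomal proteins are needed both for growth of the cell body and for local translation in axons.

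The start regions of a few members are shown because that tract is the best known shared sequence of the family. They were taken from RefSeq on GRCm38.p6, where 63 of the 84 genes matched an entry. Each line runs from 30 bases before to 20 bases from the annotated start, 5′ to 3′ on the gene's strand, with the start base and any unbroken run of C and T from it in capitals. Rps6 and Rpl15 each had a probe called between the genotype labels, Rps18 had a probe just short of the threshold, Rpl27 had probes that differed widely, and Rpl39l is set beside its parent Rpl39.
Rps6, chr4:86857348-86857397, minus strand: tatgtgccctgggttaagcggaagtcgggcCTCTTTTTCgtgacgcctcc
Rpl15, chr14:18270967-18271016, minus strand: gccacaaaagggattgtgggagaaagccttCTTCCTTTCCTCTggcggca
Rps18, chr17:33955646-33955695, minus strand: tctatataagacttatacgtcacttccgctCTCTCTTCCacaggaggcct
Rpl27, chr11:101442215-101442264, plus strand: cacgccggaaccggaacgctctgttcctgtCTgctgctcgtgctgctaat
Rpl39, chrX:37085203-37085252, minus strand: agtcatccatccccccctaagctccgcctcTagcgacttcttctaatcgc
Rpl39l, chr16:10170198-10170247, plus strand: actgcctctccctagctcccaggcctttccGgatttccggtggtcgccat
A C at the annotated start followed by at least 4 unbroken C or T bases was found in 13 of the 63 member genes (20.6%) and in 3.01% of all 27025 genes in the table. Rps6, Rpl15 and Rps18 carried such a run, and Rpl27, Rpl39 and Rpl39l did not at the start annotated here. In the window from 10 bases before to 20 bases from the start, CTTTC on the sense strand stood in 23.8% of member genes against 4.43% of all genes, and on the antisense strand in 4.76% against 4.31%. CTTCC on the sense strand stood in 20.6% of member genes against 7.49% of all genes, and on the antisense strand in 14.3% against 8.67%. The 2 motifs can overlap each other and the start run. CGGAAG, the core of the sites that ETS-family factors bind, stood on either strand of the whole promoter window in 68.3% of member genes and 18.8% of all genes. These matches describe letters in a window and were not tested as sites.

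The arrays themselves differed before any comparison of members. Taken over probes, the processed signal had a 75th percentile of 59.9 and 506 on replicates 1 and 2 of the knockout-labelled GFP-on arrays. It was 48.5 and 64.5 for the wild-type-labelled pair, and 550 and 340 for the GFP-off arrays (knockout-labelled first, here and below). Between 41.0% and 62.3% of spots were well above background. Precision is limited by how few arrays there were. Mir17hg, the host transcript of the targeted cluster, gave log2 levels between 4.55 and 4.78 on the 3 knockout-labelled arrays and between -2.38 and 2.73 on the 3 wild-type-labelled arrays. This direction goes against the labels if its probe lies in the deleted part, and its position was not known. The genotypes are therefore called knockout-labelled and wild-type-labelled, and every direction between them rests on those labels. Slide row 1 held both knockout-labelled GFP-on arrays and row 2 the other 4. Slide row therefore cannot be told apart from genotype label among GFP-on cells, or from fraction among the knockout-labelled arrays. Mnx1, the gene of the reporter, was not analysed here, but 8 other motor neuron markers matched. The log2 of their summed signal was 3.05 to 5.32 on GFP-on arrays against 2.40 and 1.79 on GFP-off arrays. All 9 of their probes had a positive difference, and those of Chat, Slc18a3, Lhx3 and Lhx4 rose in GFP-on cells (limma, adjusted p between 0.015 and 0.047).

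Ribosomal protein transcripts were easily detected in every group. Of 171 probes, 160 were well above background on all 6 arrays (93.6%, against 34.3% of all probes), and 166 probes of 81 genes passed the filter and were tested (97.1%, against 59.7% of all probes). Of the 5 others, 4 were not above background on any array, among them both Rpl10l probes and the Rpl3l probe, and the Rpl4 probe was set aside for an outlier flag on 1 array. Rpl10l and Rpl3l are paralogs known mainly from testis and from muscle. Rpl4, a large subunit protein, gave log2 levels of 7.16 on its remaining knockout-labelled GFP-on array, 7.40 and 6.50 on the wild-type-labelled GFP-on arrays, and 7.43 and 7.46 on the GFP-off arrays. A level here is the log2 processed signal minus the 75th percentile of its array. Levels of different probes are not set against each other, because each probe binds with its own strength.

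The median member probe had a log2 level of 6.84 and 7.12 on the knockout-labelled GFP-on arrays, 7.01 and 6.41 on the wild-type-labelled GFP-on arrays, and 7.34 and 7.41 on the GFP-off arrays. Both GFP-off arrays thus had higher medians than all 4 GFP-on arrays. Of 166 member probes, 67 had their highest level on the wild-type-labelled GFP-off array and 38 on the knockout-labelled one. The lowest level lay on wild-type-labelled GFP-on replicate 2 for 91 probes. Wild-type-labelled GFP-on replicate 1 held the highest level for 50 probes and the lowest for 26. Its middle range was wide, 4.76 to 8.43 between quartiles, against 6.43 to 8.19 on the knockout-labelled GFP-off array.

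**Figure D1:**
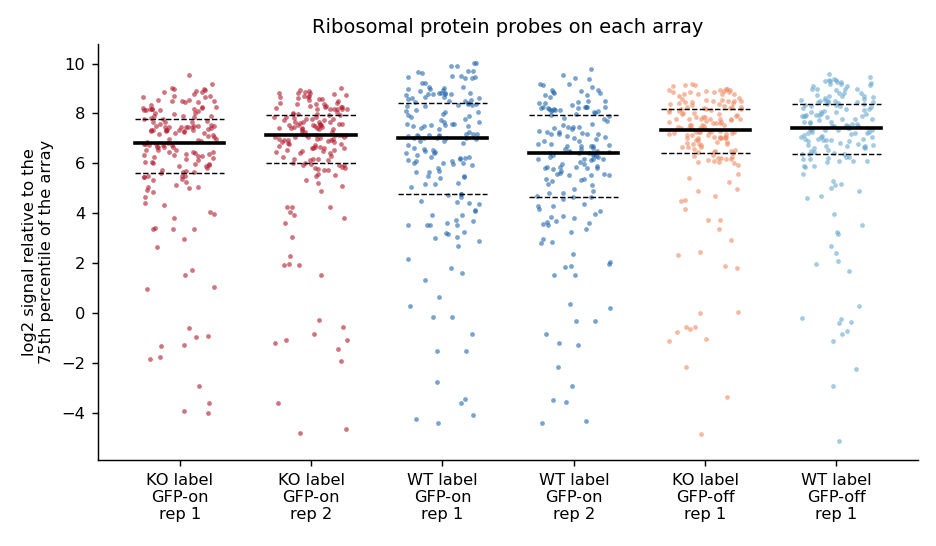
Log2 signal of the 166 tested ribosomal protein probes relative to the 75th percentile of each array (y axis), by array (x axis), 1 point per probe, with the median as a solid line and the quartiles as dashed lines. Medians are 7.34 and 7.41 on the GFP-off arrays and 6.41 to 7.12 on the GFP-on arrays, and the quartiles lie widest apart on the wild-type-labelled GFP-on arrays.

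The wild-type-labelled GFP-on arrays stood apart from the other 4. Over member probes, the SD of the difference between arrays was 0.18 for the GFP-off pair, 0.31 for the knockout-labelled GFP-on replicates and 0.27 to 0.45 between those replicates and the GFP-off arrays. It was 0.62 between the wild-type-labelled GFP-on replicates and 0.87 to 1.08 between either of them and any other array. Over all probes tested the SDs were larger (0.64 for the GFP-off pair, 0.84 for the knockout-labelled replicates and 1.05 for the wild-type-labelled ones), and their order was not the same throughout. The knockout-labelled fraction comparison below uses neither wild-type-labelled GFP-on array; for the others, values are given with each of these arrays left out in turn.

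Ribosomal protein transcripts were lower in GFP-on cells than in GFP-off cells on most probes, by a modest amount, and a single probe passed the test. In a model that adds the effects of fraction and genotype label, 154 of 166 member probes had a negative difference, with a median of -0.54 (all probes tested: -0.09). Large subunit probes had a median of -0.58 and small subunit probes -0.40. On 82 member probes (49.4%), all 4 GFP-on arrays lay below both GFP-off arrays, which was so for 14.8% of all probes tested, and on 2 (1.20%) they lay above both (all probes: 9.42%). The one called probe was that of Rpl39l, and it fell. Of all probes tested, 0.204% were called lower and 0.649% higher, and 0 member probes were called higher (limma, Benjamini-Hochberg adjustment over all probes, threshold 0.05). At an unadjusted p under 0.05 (limma), 23 of 166 member probes passed, beside 6342 of all 33264 probes tested. In sorted cells, fewer cells of a type and less RNA per cell cannot be told apart.

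Rpl39l encodes a close paralog of Rpl39, a small protein lining the ribosome exit tunnel. Its log2 level was -3.98 and -3.58 on the knockout-labelled GFP-on arrays and -3.44 and -4.31 on the wild-type-labelled pair, and of these 4 arrays the second knockout-labelled one was above background. On the GFP-off arrays it was -1.13 (knockout-labelled) and -0.83 (wild-type-labelled). All 4 GFP-on arrays lay well below both GFP-off arrays. The difference was -2.85 ± 0.48 (SE, 4 arrays against 2, adjusted p = 0.0376, limma). Taken by label, it was -2.65 for knockout-labelled arrays and -3.05 for wild-type-labelled arrays (limma, adjusted p = 0.285 and 0.0513). Because both wild-type-labelled GFP-on arrays were below background, the wild-type-labelled size is also given as a bound, at least 2.60-fold lower, from the lowest signals called above background. The call was lost on leaving out any of 5 arrays. The adjusted p was 0.0721 without knockout-labelled GFP-on replicate 1 and 0.165 and 0.0930 without wild-type-labelled GFP-on replicates 1 and 2 (limma). Leaving out a GFP-off array gives the same values as the by-label test of the other label, given above, and is no separate check. With normexp background correction the difference was -0.41 (limma, adjusted p = 0.521).

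The parent gene Rpl39 did not share this size. Its 3 probes had GFP-on minus GFP-off differences of -0.57, -0.77 and -0.60, none of which passed. On the first, the levels were 6.46 and 6.82, then 7.03 and 6.06 on the GFP-on arrays (knockout-labelled, then wild-type-labelled), against 7.21 and 7.13 on the GFP-off arrays. Wild-type-labelled GFP-on replicate 2 was again the lowest, and all 4 GFP-on arrays lay below both GFP-off arrays.

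**Figure D2:**
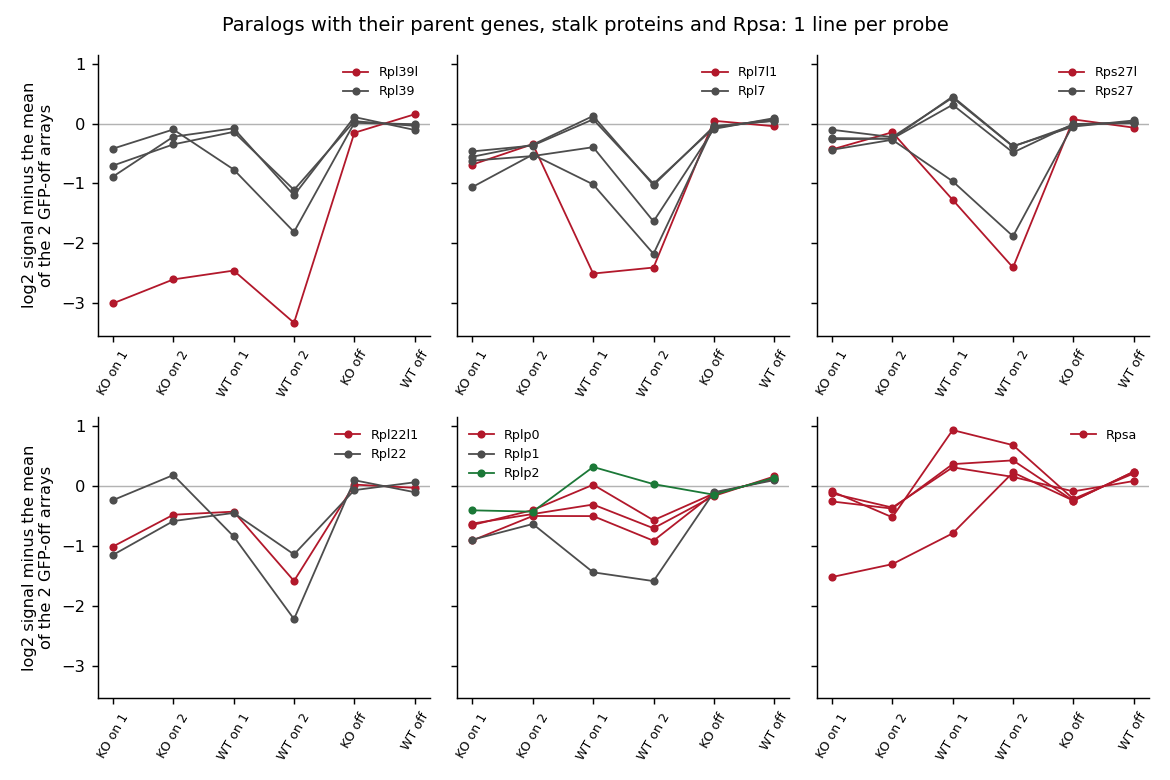
Log2 signal of each probe minus its mean on the 2 GFP-off arrays (y axis), by array (x axis; on and off stand for GFP-on and GFP-off), for paralogs with their parent genes, the stalk proteins and Rpsa, 1 line per probe. Rpl39l lies below its GFP-off mean on all 4 GFP-on arrays, whereas Rpl7l1 and Rps27l lie far below it on the wild-type-labelled GFP-on arrays alone.

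The difference between fractions was also taken within each genotype label. The knockout-labelled arrays leave out both wild-type-labelled GFP-on arrays, and within them fraction and slide row cannot be told apart. There, 161 of 166 member probes were lower in GFP-on cells, with a median of -0.35 (all probes: -0.14). Both GFP-on arrays lay below the GFP-off array on 150 member probes (90.4%), against 45.2% of all probes tested, and above it on 2 (1.20%, against 27.9%). No probe of any gene passed in this comparison of 2 arrays against 1 (0.00% called). Within the wild-type-labelled arrays, 138 of 166 were lower, with a median of -0.62 (all probes: 0.01), and both GFP-on arrays lay below the GFP-off array on 111 (66.9%), against 38.0% of all probes, and above it on 14 (8.43%, against 39.6%). Here 3 member probes fell (1.81%), and of all probes 1.51% were called lower and 1.04% higher. They were single probes of Rpl21 (-3.61, bounded as at least 2.79-fold lower), Rps19 (-3.27) and Rpl27 (-3.05), with adjusted p between 0.0333 and 0.0459 (limma). Without wild-type-labelled GFP-on replicate 2 the count was 0 and the median -0.36 (54 of 166 positive), and without replicate 1 the count was 8 and the median -0.87. The median's distance from the knockout-labelled -0.35 thus rested on replicate 2. The count of called member probes was also 0 when the 75th percentile of each array was taken over spots in place of probes. The median was then -0.52 (all probes: 0.11).

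The difference between the genotype labels in this respect was tested as an interaction. Its median over member probes was 0.19 (all probes: -0.13), and 0 of 166 member probes and 0 of all probes passed (limma, 0.00% called). The median turned to -0.10 without wild-type-labelled GFP-on replicate 2 (78 of 166 positive) and was 0.44 without replicate 1. The GFP-on minus GFP-off differences over the knockout-labelled arrays had an SD of 0.33 across member probes, against 0.88 over the wild-type-labelled arrays. Few members were higher in GFP-on cells. Over both labels the largest positive difference was 0.94, on 1 of 2 Rps3 probes, and it did not pass. The other Rps3 probe gave -0.56. Rpl41, the smallest ribosomal protein, had levels of 9.53 and 8.85 (knockout-labelled) and 9.90 and 9.56 (wild-type-labelled) in GFP-on cells against 8.87 and 9.11 in GFP-off cells, a difference of 0.47 that did not pass. On 3 GFP-on arrays it was above both GFP-off arrays, and on the other one just below them.

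**Figure D3:**
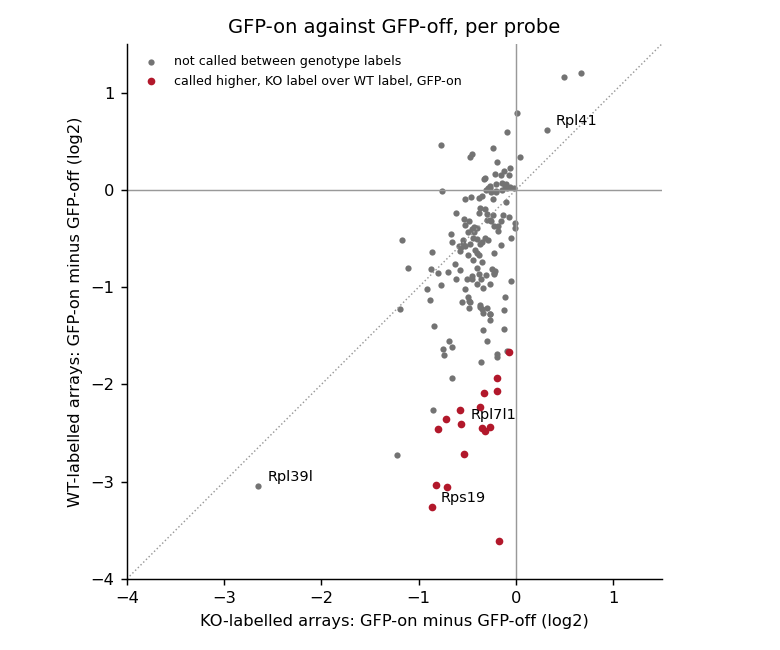
GFP-on minus GFP-off log2 difference of each tested member probe in the knockout-labelled arrays (x axis) and in the wild-type-labelled arrays (y axis), with the line of equal values dotted and probes called between the genotype labels in GFP-on cells in red. Points spread further along the y axis (SD 0.88) than along the x axis (SD 0.33), and Rpl39l is far from 0 on both.

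Markers of other cells also differed between the fractions. For the 8 matched red cell genes, the log2 of the summed signal was 8.59 to 9.86 on GFP-on arrays and 11.1 and 11.2 on GFP-off arrays. Of their probes, 5 of 9 were called lower and none was listed at 0. The 4 neural crest and Schwann cell genes, summed in the same way, gave 4.62 to 5.70 on GFP-on arrays and 1.46 and 1.71 on GFP-off arrays. Of their probes, 2 of 4 were called higher. Progenitor genes ranged from 5.04 to 7.05 on GFP-on arrays and were 6.66 and 6.46 on GFP-off arrays. Interneuron genes ranged from 5.20 to 5.72 and were 3.73 and 4.28, respectively. Their part in the ribosomal protein difference was not tested.

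Between the genotype labels in GFP-on cells, 17 of 166 member probes rose in the knockout-labelled arrays (10.2%) and none fell. Of all probes tested, 10.6% were called higher and 14.2% lower (limma), so the members' share of higher calls was close to that of the array. The median member difference, knockout-labelled minus wild-type-labelled, was 0.09 (all probes: -0.20), with 93 positive and 73 negative. On 56 member probes (33.7%) both knockout-labelled arrays lay above both wild-type-labelled ones (all probes: 29.8%), and on 35 (21.1%) both lay below (all probes: 39.7%). More than 2-fold differences in either direction were found on 24.1% of member probes and 53.4% of all probes. An exact permutation test on 1 probe has a smallest possible p of 0.333 with groups of 2, and each call therefore leans on the variance that limma pools over probes.

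The called probes belonged to 14 genes of both subunits. Rps19, a small subunit protein known for its mutation in Diamond-Blackfan anaemia, gave 5.89 and 6.61 on the knockout-labelled arrays and 3.68 and 3.86 on the wild-type-labelled pair, with 7.12 and 7.04 on the GFP-off arrays. The wild-type-labelled GFP-on pair lay below all 4 other arrays. The difference was 2.48 ± 0.53 (SE, n = 2 against 2, adjusted p = 0.0170, limma). One probe of Rpl26, a large subunit protein that also binds the p53 mRNA, gave 4.33 and 5.11 against 2.19 and 2.39 (difference 2.43). In both of these genes the wild-type-labelled GFP-on arrays were the low ones. Their place below the knockout-labelled pair follows from choosing probes called higher. On the other 4 arrays, Rps19 ran from 5.89 to 7.12.

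The same shape was seen for the next probes. One of Rpl27 gave 5.14 and 5.83 against 3.04 and 3.23 (difference 2.35), with 6.20 and 6.19 on the GFP-off arrays. One of Rps15, a small subunit protein, gave 5.50 and 5.94 against 3.26 and 3.62 (difference 2.28), with 6.07 and 5.89 on the GFP-off arrays. Groups did not overlap on either probe. One probe of Rpl21, a large subunit protein, gave -0.92 and -0.56 against -4.26 and -4.41, the latter both below background. Its fitted difference of 3.60 ± 0.51 (adjusted p = 0.00850, limma) rests on those dim signals and has no rank among the members; as a bound it was at least 2.75-fold higher.

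Among the other called probes, Rps2 (2.26), Rps6 (2.15), Rpl29 (2.15), Rpl23a (2.05), Rpl7l1 (1.94) and Rpl31 had 1 each. Rps6 is the small subunit protein phosphorylated by S6 kinase downstream of mTOR. Rpl15 had both of its probes called (2.08 and 1.81), as did Rps3a1 (1.72 and 1.69), and Rpl26 had a second (1.80). The highest adjusted p among the 17, just inside the threshold, were those of Rpl15 (1.81, adjusted p = 0.0475) and Rps3a1 (1.72, adjusted p = 0.05 after rounding up; limma). Just outside it were probes of Rps18 (1.83, adjusted p = 0.0508), Rpl23a (1.62, 0.0533) and Rpl13a (1.60, 0.0548) by the same test. An Rpl6 probe had a fitted difference of -1.66 but was above background on 3 arrays, which leaves its size unsettled.

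Leaving out an array changed the count and the median, and 14 of the 17 stayed called when the percentile was taken over spots. Without wild-type-labelled replicate 2, the median member difference was -0.20 (all probes: -0.27), and without replicate 1 it was 0.36 (all probes: -0.13). Without knockout-labelled replicate 1 it was 0.25 (all probes: -0.13), and without replicate 2 it was -0.01 (all probes: -0.24). Replicate 2 is the bright knockout-labelled array, and 1 member probe was called when array brightness was a covariate. The covariate also uses up a residual degree of freedom, as does leaving out a GFP-on array. With it, the SE of the Rpl7l1 difference went from 0.51 to 0.86. Whether brightness accounts for the calls was not tested. With that covariate, 753 of all probes were called higher and 884 lower. When each array was scaled to its median, 34 of 166 member probes were called higher and none lower. Of all 33264 probes tested, 7282 were then called higher and 2569 lower. The share of higher among all called probes went from 42.7% to 73.9%. That scaling moved the median difference of all probes from -0.20 to 0.44 and of members from 0.09 to 0.73. With 1 probe per gene, the one with the highest mean, the members' median was -0.07 (37 of 81 positive) and that of all genes 0.34.

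Marker genes also differed between these arrays. For the motor neuron markers themselves, the log2 of the summed signal was 5.08 and 5.32 on the knockout-labelled GFP-on arrays. It was 3.63 and 3.05 on the wild-type-labelled pair, with 4 of 9 probes called higher. Of the red cell probes, 2 of 9 were called higher (9.86 and 8.59 against 8.77 and 8.61). The 9 matched microglia and macrophage genes, summed in the same way, gave 4.81 and 4.85 on the knockout-labelled GFP-on arrays. They gave 3.61 and 4.02 on the wild-type-labelled pair, with 7 of 12 probes called higher. Endothelial genes had 2.95 and 3.70 against 4.05 and 6.85, and progenitor genes 6.81 and 7.05 against 5.97 and 5.04. The endothelial probes were split, 2 positive and 3 negative, and 1 of these 5 was called higher and none lower. Of 7 tested progenitor probes, 2 were called higher and none lower. All of these lists had probes above background on every array. Their part in the ribosomal protein differences was not tested.

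Different probes of the same gene gave different answers between the genotype labels. Of 50 genes with at least 2 tested probes (135 probes), 22 (44.0%) had all probes on the same side of 0. For all 3887 named genes with at least 2 tested probes the share was 48.7%. The SD of the difference within a gene was 0.76, about as large as the SD between gene means (0.70). Over all those named genes the SD within a gene was 1.39. Probes of 18 member genes (36.0%, against 63.1% of all those genes) differed by more than 1 on the log2 scale and those of 5 genes by more than 2. The 5 genes were Rpl21, Rps15, Rpl27, Rpl29 and Rpl6, with ranges of 4.88, 3.14, 2.53, 2.21 and 2.15, and were singled out after their values were seen.

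The range of Rpl21 rests on the dim signals of its first probe, and that of Rpl6 on a probe above background on 3 arrays. The second Rpl21 probe gave -1.85 and -1.20 on the knockout-labelled arrays and -0.85 and 0.37 on the wild-type-labelled pair, a difference of -1.28 that did not pass, against 3.60 for the first. The order of the labels was thus opposite on the 2 probes. The second Rps15 probe gave 7.49 and 7.37 against 8.32 and 8.26 (-0.86), where the first gave 2.28. The second Rpl27 probe gave 7.28 and 7.65 against 7.90 and 7.39, a difference of -0.18 with overlapping groups. For Rpl29 the second probe gave -0.07, and for Rpl6 the 4 probes ran from -1.66 to 0.49.

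Of the 14 genes with a called probe, 11 had another tested probe, and in 2 of these, Rpl15 and Rps3a1, every tested probe was called. The other 9 had 12 probes that did not pass, 8 positive and 4 negative, from -1.28 to 1.62 with a median of 0.42. Since no member probe was called lower, no gene could have probes called in opposite directions. At the other end, the 2 probes of Rpl38 differed by 0.02 (-0.50 and -0.49), and the 3 of Rplp0 lay between -0.25 and 0.00. Rpl17, with 7 probes the most of any member, had differences from -0.08 to 1.12.

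**Figure D4:**
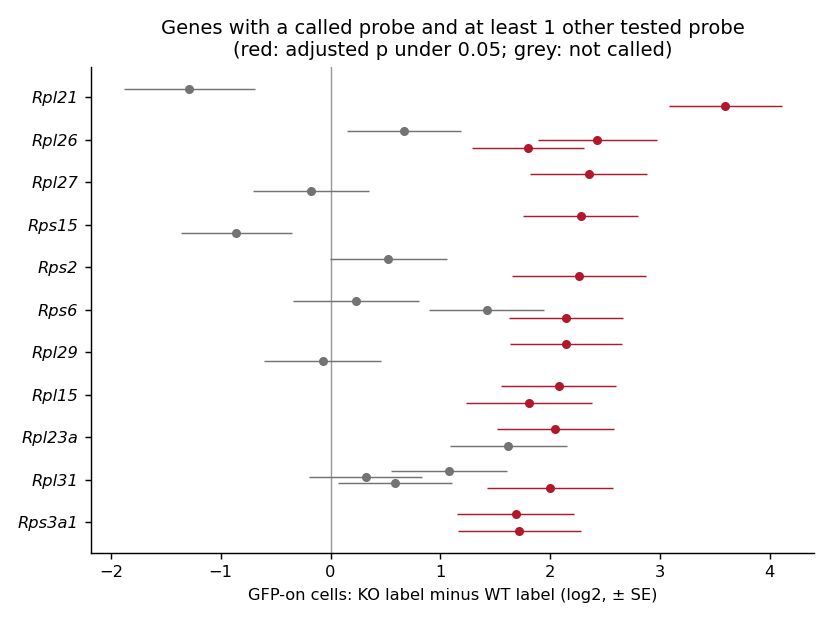
Knockout-labelled minus wild-type-labelled log2 difference in GFP-on cells (x axis, points with SE from limma, n = 2 against 2) for every tested probe of the 11 genes that had a called probe and at least 1 other tested probe (y axis). Red points passed an adjusted p of 0.05 and grey ones did not; probes of Rpl21 and Rps15 lie on opposite sides of 0, and both probes of Rpl15 and of Rps3a1 are red.

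Probes of the same gene were closer together where the wild-type-labelled GFP-on arrays were not used. For GFP-on minus GFP-off in the knockout-labelled arrays, 46 of the 50 genes (92.0%) had all probes on the same side of 0, the SD within a gene was 0.26, and probes of 3 genes differed by more than 1; over all named genes these were 68.5%, 0.50 and 15.7% of genes. The 3 genes were Rps3, Rpsa and Rps27a. In the wild-type-labelled arrays, 35 genes (70.0%) had all probes on the same side, the SD within a gene was 0.72, and probes of 19 genes (38.0%) differed by more than 1, against 57.3%, 1.13 and 54.5% over all named genes. All 7 Rpl17 probes were negative in both, from -0.61 to -0.13 and from -1.24 to -0.40. Of the 4 Rpl7a probes, 3 gave -0.42, -0.46 and -0.62 in the knockout-labelled arrays and the other gave -1.11. Many member genes also have near-identical pseudogenes (63 of 84 genes share their name with 318 named pseudogenes), so a probe may bind more than 1 transcript, and which probes do so was not tested.

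The GFP-off arrays, 1 per genotype label, were alike in their ribosomal protein signal. Of 166 probes, 120 were lower and 46 higher in the knockout-labelled array, with a median of -0.09 (all probes: -0.03) and a range from -0.54 to 0.48. No member probe differed by more than 2-fold, against 8.68% of all probes. Within genes the SD was 0.14, and probes of no gene differed by more than 1. This pair has no replicate check.

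The ribosomal stalk binds elongation factors and is built of Rplp0 with dimers of Rplp1 and Rplp2. One Rplp0 probe gave 7.32 and 7.73 on the knockout-labelled GFP-on arrays, 7.73 and 7.32 on the wild-type-labelled pair and 8.11 and 8.35 on the GFP-off arrays. Its GFP-on values overlapped fully between labels and lay below both GFP-off values. The 3 Rplp0 probes had GFP-on minus GFP-off differences of -0.70, -0.52 and -0.40. Rplp1 gave 6.99 and 7.25, then 6.45 and 6.30, against 7.78 and 7.99 (difference -1.14). Rplp2 gave 8.70 and 8.68, then 9.43 and 9.14, against 8.96 and 9.25 (difference -0.12). Between genotype labels Rplp1 (0.75) and Rplp2 (-0.59) pointed in opposite directions, and no stalk probe passed either test.

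Rpsa encodes a small subunit protein that is also known as a laminin receptor. Its 4 probes all had negative differences between the genotype labels, -1.13, -1.11, -0.71 and -0.47, none of which passed. One of them gave 8.99 and 8.56 on the knockout-labelled GFP-on arrays, 10.02 and 9.77 on the wild-type-labelled pair, and 8.87 and 9.29 on the GFP-off arrays. Here the wild-type-labelled GFP-on arrays were the high ones, opposite to Rps19. All 3 probes of Rpl36, a large subunit protein, were also negative (-1.13, -1.09 and -0.54).

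Paralogs of ribosomal proteins replace their parent in some ribosomes or tissues. Rpl7l1, a paralog of Rpl7 with a role in building the large subunit, gave -1.76 and -1.42 on the knockout-labelled GFP-on arrays, -3.58 and -3.48 (both below background) on the wild-type-labelled pair, and -1.03 and -1.12 on the GFP-off arrays. It rose by 1.94 ± 0.51 between the labels (n = 2 against 2, adjusted p = 0.0282, limma) and is bounded as at least 1.53-fold higher; with normexp background correction the value was -0.08. The 4 Rpl7 probes gave 0.05, 0.00, 0.81 and 0.43, and none passed. Rps27l, a p53-inducible paralog of Rps27, gave 4.93 and 5.21, then 4.09 and 2.95, against 5.43 and 5.29 on the GFP-off arrays. Its label difference of 1.55 had an adjusted p of 0.0741 (limma), and those of the 4 Rps27 probes ran from -0.29 to 1.07.

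The other paralogs showed smaller differences. Rpl22l1, a paralog of Rpl22, gave 5.39 and 5.92, then 5.97 and 4.81, in GFP-on cells and 6.42 and 6.37 in GFP-off cells. All 4 GFP-on arrays lay below the GFP-off arrays, by a mean of -0.87 that did not pass, and the 2 Rpl22 probes gave -0.78 and -0.83. Rpl36al gave 4.86 and 5.31, then 5.40 and 4.64, against 5.56 and 5.57 (difference -0.51), and the 3 probes of its parent Rpl36a gave -0.84, -0.75 and -0.86. Rps4l gave 3.96 and 4.04, then 3.71 and 3.68, against 4.50 and 4.62 (difference -0.71), and its parent Rps4x, an X-linked gene, gave -1.12. In each pair the GFP-on arrays were below both GFP-off arrays for the paralog. Rpl3, the parent of the undetected Rpl3l, gave 7.16 and 7.12, then 6.56 and 5.98, against 7.19 and 7.21. The 3 probes of Rpl10, the parent of the undetected Rpl10l, had differences of -0.12, -0.27 and -0.24 between fractions and of -0.19, 0.26 and -0.05 between labels.

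Genes that work with the ribosomal proteins were listed as context. Fau, whose product is a ubiquitin-like protein fused to a ribosomal protein, and Rack1, a scaffold on the small subunit, had label differences of -0.74 and -0.05 that did not pass. Of 62 probes of 42 translation factor genes, 11 rose between the labels, 1 fell and 50 did not pass, with a median of 0.75. One probe of Eef1g, a subunit of elongation factor 1, gave 4.60 and 5.18 against 0.88 and 0.89, while its other gave 2.43 and 2.25 against 2.36 and 3.25 (difference -0.47, not called). Single probes of Eif4g2 and Eif3b, both initiation factor genes, differed by 3.97 and 3.78. The Eif3b probe was not above background on wild-type-labelled GFP-on replicate 1, which leaves its size unsettled.

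Ribosome assembly factors differed similarly. Of 77 probes of 57 biogenesis genes, 15 rose and 2 fell between the labels, with a median of 0.54. Tsr1, a factor of small subunit maturation, was called higher on 2 probes, both below background on the wild-type-labelled GFP-on arrays, so no size is given. For RNA polymerase I, which makes ribosomal RNA, 3 of 19 probes rose and none fell (Polr1b, Taf1c and Polr1c; median 1.06). Of 94 mitochondrial ribosomal protein probes 16 rose and none fell (median 0.74), among them Mrps35 (2.75) and Mrps9, whose 2 wild-type-labelled GFP-on signals were not above background. Against the 10.6% of all probes called higher, these shares are given as counts without a test of the lists. Between GFP-on and GFP-off cells no probe of these 4 lists was called, and their medians were -0.42 (translation factors), -0.67 (biogenesis), -0.68 (RNA polymerase I) and -0.54 (mitochondrial ribosome), beside -0.54 for the cytosolic ribosomal proteins.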

How the data were processed

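Transcript levels were measured on 6 one-colour Agilent arrays on 1 slide. The scanner software, per the file headers, was Feature Extraction 10.5.1.1, whereas the submitters' processing notes name 9.1. The deposited scanner files hold the processed signal as a background-subtracted intensity, together with median signal and background intensities and flags of other kinds. The deposited value table is in log2 and equals the values used here within 0.01. Here, log2 processed signals were averaged over the unflagged spots of a probe, and the 75th percentile over the probes of each array was subtracted. That percentile was first taken over spots; it was changed to probes after results had been seen, because this matches the deposited value table, and the first choice is kept as an alternative. Probes well above background on at least 2 of 6 arrays and unflagged on all (33264) entered limma fits (lmFit, eBayes; limma 3.58.1, R 4.3.3; Benjamini-Hochberg adjustment over all probes, threshold 0.05). The genotype comparison, the fraction comparisons within a label and the interaction used a model of 4 group means (2 residual degrees of freedom). The within-label comparisons and the interaction assume that the single GFP-off arrays vary like the GFP-on groups. Over both labels, the 2 fractions were compared in an additive model (3 degrees of freedom). A fold against a group below background is a lower bound, computed against the lowest signal called well above background or the probe's own signal where higher. The headers name mm9 and the gene table GRCm38.p6, so probes have no coordinates here; of 55681 probes, 26300 matched 1 gene symbol.

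Members and lists were chosen with earlier results of these data known. Values are given array by array for up to 6 called probes per direction with the largest difference and no overlap between groups. They are also given for Rplp0, Rplp1, Rplp2 and Rpsa, and for paralogs with their parents. Rpl4, Rpl41, Rpl36, Rps3, other called probes and the promoters shown were added after their values were seen. A few named-gene entries are not reported here. Tests were checked on simulated data. Alternatives were scaling, background correction, filters, models and leaving out each array; for normexp (offset 50) the median signal was used. Of the 89 symbols in the gene table that meet the rule, 5 had no matched probe and were not analysed here.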

Additional observations from a re-analysis of the deposited data

How the results depend on the processing

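The count of member probes called between genotype labels (17 above) was 34 with median scaling, 3 with quantile normalization, 0 without a filter on dim probes, 1 with array brightness as a covariate, 6 with 1 probe per gene and 0 in the additive model; leaving out 1 array gave 1 to 24. The median member difference in that comparison (0.09) was 0.73 with median scaling, 0.50 with quantile normalization and 0.52 with normexp, and -0.07 with 1 probe per gene; it was -0.04 with the percentile over spots, an alternative chosen after seeing the data, and -0.20 to 0.36 without 1 array. Between the labels, 7282 of all probes were called higher and 2569 lower with median scaling. These numbers were 1578 and 392 with quantile normalization, and 2354 and 1080 with 1 probe per gene. Rpl7l1 was -0.083 with normexp. The fraction comparison (1 called) gave 0 with quantile normalization, with normexp, without the filter and with the brightness covariate, and 0 to 3 without 1 array; its median was -1.08 with normexp. The median in the knockout-labelled arrays was -0.76 with normexp. In the wild-type-labelled arrays (3 called), 18 probes were called with median scaling, 16 with normexp, 16 with the filter on all 6 arrays, and 0 with quantile normalization, no filter, the percentile over spots or the brightness covariate; 0 to 8 were called without 1 array, and the median was -1.33 with normexp. The interaction median was 0.57 with median scaling and -0.10 to 0.44 without 1 array.

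As a replicate block, the replicate number gave 16 calls between the labels, including 15 of the 17, with a median of 0.09. The differences between replicates 1 and 2 correlated between the labels at -0.0964 across all probes and 0.229 across members, so a pairing by number was not taken. A replicate block by the tag that some descriptions share, whose meaning is not stated, gave 4 calls in the fraction comparison.

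For the 17 called probes, 149 of 258 values under alternatives kept direction and call, 108 kept direction only and 1 turned. The 149 include 17 from the fit on GFP-on arrays alone and 17 from the deposited value table. Those 2 alternatives repeat the main values by construction and are no check of them. Differences also repeat by construction without the filter, with the filter on all 6 arrays, with 1 probe per gene and with the replicate-number block. In these fits only the call can change, so a kept direction there is no check. Probes near background, such as those of Rpl39l, Rpl21 and Rpl7l1, have sizes that depend on how background is handled. Causes were not tested.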
